A study of Saccharomyces cerevisiae with 35 samples.

Results

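Colonies of the haploid budding yeast strain F45 that carried an empty low copy number plasmid were compared with colonies of F45 without a plasmid. The comparison uses the 4 libraries of the empty plasmid strain and the 4 F45 libraries that were prepared with them, 8 of the 35 libraries of the series and 8 of the 24 in its first batch. The study asked how an additional chromosome XV or XVI, or a change in the dose of the transcriptional repressor gene DIG1, alters gene expression and colony form, and the empty plasmid strain served there as the control for a plasmid that carries DIG1. RNA-seq measured polyadenylated RNA from whole colonies, with 3–5 colonies pooled for each library after 4 d at 30° on rich medium with 2% glucose.

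Both strains are euploid MATa haploids with hoΔ0::hphMX6, the reporter SPS2:EGFP:natMX4 and an unmapped serine auxotrophy. The empty plasmid strain, YO1853, differs from F45, YPG725, by the plasmid pRS41K, a centromeric vector with a kanMX marker that gives resistance to geneticin. The drug was not named in the sources used here for the plates from which colonies were taken, and the plasmid itself was not among the counted features, so neither selection nor plasmid copy number was measured here. The group is 1 plasmid-bearing strain with 4 libraries, and differences that arose when that strain was made cannot be told apart from the effect of the plasmid.

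A centromeric plasmid behaves like a very small extra chromosome: it is replicated from its own origin, held by a kinetochore and passed to both cells at most divisions. Cells of a 4 day colony have mostly used up the sugar of the medium and live on ethanol, with zones that differ in access to nutrients. Yeast reads 3 of the conditions met there through small sets of target genes: the activator Zap1 raises zinc uptake genes through zinc responsive elements, Pho4 raises phosphate uptake and scavenging genes through the site CACGTG, and Msn2 and Msn4 raise a broad set of stress genes through the element AGGGG. Gcn4, which binds TGACTCA, plays the same part for the synthesis of amino acids.

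The empty plasmid libraries were sequenced more deeply, with 18375753–37823857 assigned counts (median 22828025) against 8899951–17224177 (median 12579556.5) in F45, so that no plasmid library was as shallow as any F45 library. ORFs took 98.93–98.987% of the counts with the plasmid and 98.94–98.996% in F45. At full depth 8162–9011 features had at least 10 counts with the plasmid and 7217–7952 in F45, and after all 8 libraries were thinned to the depth of the smallest these became 7266–7320 and 7162–7243. Levels below are normalized CPM, ORF counts scaled to library size after TMM normalization, values after ± are SDs over 4 libraries, and fold changes are log2 ratios of the empty plasmid strain over F45 from edgeR. The strains fitted their labels: per library, the median fold over F45 of the genes on each chromosome lay between 0.936 and 1.05, and the 7 a-specific marker genes summed to 844–924 CPM with the plasmid and 661–725 CPM in F45, against 80.1–85.0 and 85.6–95.6 CPM for 4 alpha-specific genes. DIG1, which neither strain alters, had 74.1, 71.3, 71.4 and 67.9 CPM with the plasmid and 66.6, 71.5, 63.5 and 72.02 CPM in F45, ranges that overlap (log2 fold change 0.06, two-sided exact permutation p = 0.314).

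Carriage of the empty plasmid went with many small changes and few large ones. Of 5923 ORFs tested, 2831 (47.8%) differed from F45 at an adjusted p under 0.01, 1438 (24.3%) of them higher and 1393 (23.5%) lower with the plasmid. The median change among these was 0.42 on the log2 scale, and 2697 of them stayed within 2-fold. More than 2-fold higher were 42 ORFs (0.709%) and more than 2-fold lower were 92 (1.55%), and the libraries of the 2 strains did not overlap in 41 of the 42 and in 90 of the 92. Across all tested ORFs, 1671 (28.2%) lay higher and 1653 (27.9%) lower without overlap between the strains. Tested against a change of 1.5-fold instead of against no change, 70 ORFs were higher and 109 lower. With the 8 libraries thinned to equal depth, 1369 ORFs were higher and 1404 lower, against 1504 higher and 1495 lower in the fit of the same 8 libraries at full depth.

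The steepest decreases were in genes of low and high level alike. YDL218W, a gene of unknown function (chrIV:66493-67446, plus strand), had 2.42, 1.51, 1.84 and 1.44 CPM with the plasmid against 145, 162, 133 and 141 CPM in F45. SPS100, which encodes a protein of the maturing spore wall (chrVIII:378219-379199, minus strand), had 18.6, 15.5, 20.1 and 21.7 CPM with the plasmid against 1208, 1262, 997 and 1219 CPM in F45. In both genes the 4 plasmid libraries lay far below every F45 library, and the expression fell by 6.26 ± 0.11 (SE) and 5.94 ± 0.17 on the log2 scale (adjusted p = 2.57e-26 and 4.13e-21). SHH3, a homolog of the membrane subunit Sdh3 of succinate dehydrogenase, fell by 5.96 (2.01 ± 0.262 CPM against 126 ± 14.7 CPM). Also among the 12 steepest decreases were ANS1, YMR244W, YCL048W-A and YKL107W, which have no well established function, with log2 changes of -4.68, -4.05, -3.46 and -3.13. The 12 were completed by the metabolic and stress genes PDC6, GRE1, TKL2, GND2 and PHM6, described with their groups below. In all, 20 ORFs were more than 4-fold lower and 3 were more than 4-fold higher. Whole colonies were sampled, so fewer cells that use a gene and less of its RNA per cell cannot be told apart.

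**Figure D1:**
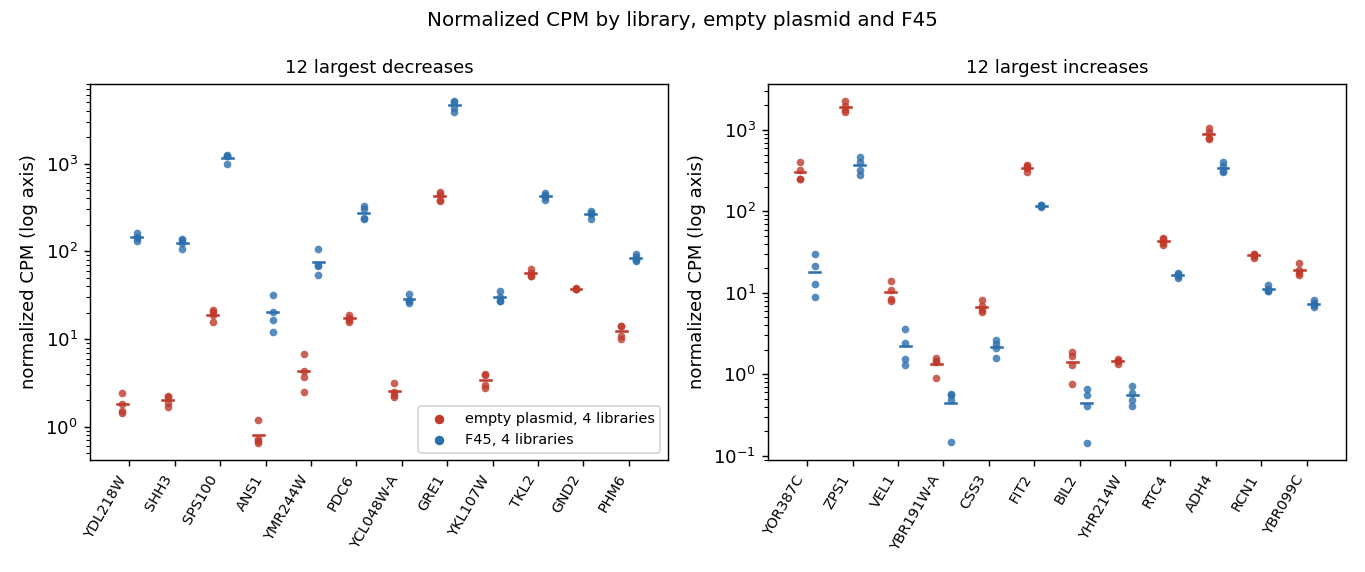
Normalized CPM of each library on log axes for the 12 ORFs with the largest decreases (left) and the 12 with the largest increases (right) in the empty plasmid strain, whose 4 libraries are red, against F45, whose 4 libraries are blue. Short bars are means, and in every one of the 24 ORFs the libraries of the strains lie apart.

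Function lists of 45 groups with at least 5 tested members were read against the shares of all ORFs (24.3% higher and 23.5% lower, median log2 change 0.01). The lists with the lowest medians were phosphate (median -0.55) and the general stress response (median -0.52), followed by serine, glycine and one-carbon metabolism (-0.48) and the synthesis of branched chain (-0.46), aromatic and histidine (-0.42) amino acids. The mitochondrial ribosome (0.36) and histones (0.35) stood at the other end beside the small MATa-specific list. Zinc genes split, with 8 of 22 higher and 8 lower.

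**Figure D2:**
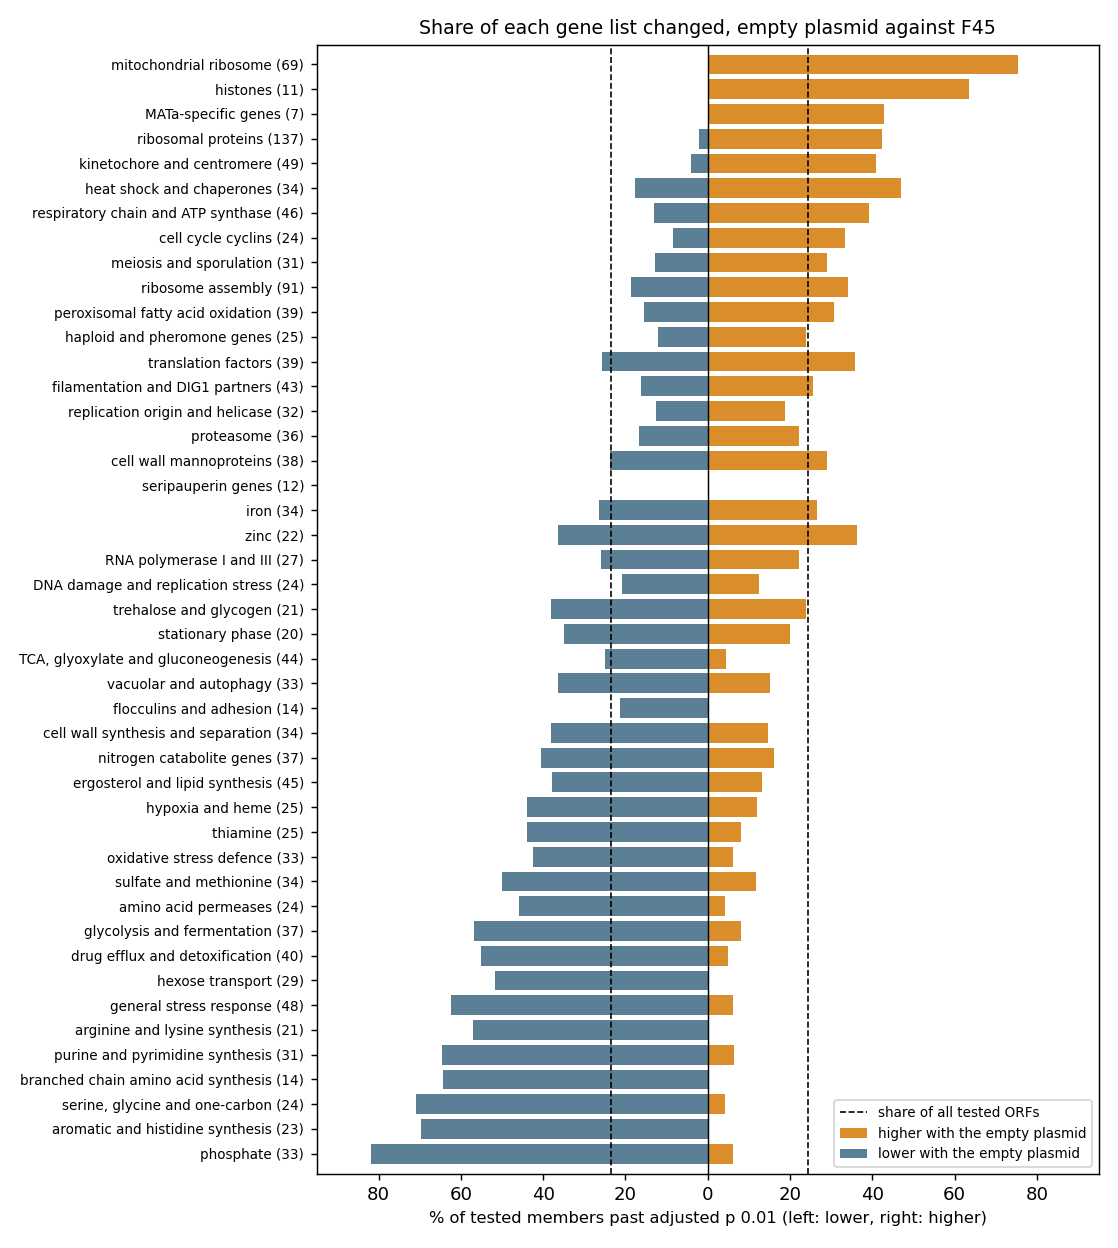
Percentage of the tested members of each of 45 gene lists that were higher (orange, right) or lower (grey-blue, left) in the empty plasmid strain than in F45 at an adjusted p under 0.01, with the number of tested members in parentheses. Dashed lines mark the shares over all 5923 tested ORFs, and the phosphate list reaches 81.8% lower while the mitochondrial ribosome reaches 75.4% higher.

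The largest increases were in zinc-regulated genes. YOR387C (chrXV:1069621-1070241, minus strand), a gene of unknown function, had 249, 251, 322 and 408 CPM with the plasmid against 8.85, 12.97, 21.1 and 29.7 CPM in F45. It rose by 4.08 ± 0.26 (SE) on the log2 scale (adjusted p = 6.02e-13), a 16.96-fold change. Its paralog VEL1, which is strongly induced when zinc is scarce and shares 2.1% of its 51-base windows with YOR387C, rose by 2.23 (10.2 ± 2.76 CPM against 2.21 ± 1.03 CPM). ZPS1, a cell surface protein made under zinc limitation (chrXV:34658-35407, plus strand), had 1751, 1678, 1977 and 2287 CPM with the plasmid and 283, 327, 405 and 465 CPM in F45, a rise of 2.38 ± 0.23. Every plasmid library exceeded every F45 library in these 3 genes. ADH4, a zinc-regulated alcohol dehydrogenase (chrVII:15159-16307, plus strand), rose by 1.38 to 896 ± 127 CPM with the plasmid, against 344 ± 43.8 CPM in F45. The high affinity zinc transporter gene ZRT1 (chrVII:20978-22108, plus strand) had 1147, 1203, 1454 and 1709 CPM with the plasmid and 694, 760.4, 774 and 906 CPM in F45 and rose by 0.82 ± 0.17 (adjusted p = 0.000171).

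The rest of the zinc list moved less and in both directions. ZRT3, which releases zinc from the vacuole, and ZRG8 rose by 0.33 and 0.40, and ZRG17, a zinc transporter of the secretory pathway, rose by 0.21. ZRT2, the low affinity zinc transporter gene, which Zap1 represses when zinc is very low, had 103, 96.4, 92.1 and 93.4 CPM with the plasmid against 155, 157, 149 and 149.8 CPM in F45 and fell by 0.67 ± 0.06. The other 7 lower members were PST1 (-1.37), which encodes a cell wall protein, GPP2, IZH2, IZH3, MSC2, DPP1 and ZRC1, with changes between -0.79 and -0.29 for the last 6. ZAP1 itself had 37.00, 37.00, 40.6 and 53.1 CPM with the plasmid and 38.6, 39.2, 38.1 and 43.9 CPM in F45, ranges that overlap (log2 change 0.07, adjusted p = 0.618). The alcohol dehydrogenases ADH1 and ADH3, which Zap1 represses under zinc limitation, had log2 changes of 0.14 (adjusted p = 0.117) and 0.34 (adjusted p = 7.77e-05). Within both strains the zinc-regulated genes ran together over libraries: for YOR387C, ZPS1, VEL1, ADH4 and ZRT1 the highest library of the plasmid strain and the highest of F45 carried the same number in their column headings. What that number stands for is not given in the sources used here. With it as a block in a fit of the 8 libraries, YOR387C, ZPS1, VEL1 and ADH4 rose by 4.11, 2.39, 2.22 and 1.38.

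Zinc responsive elements were found before some of the raised genes, and 3 stretches that hold them are shown as examples. The element, ACCTT parted by any 1 base from AAGGT and read on both strands of the 500 bases before the start codon, occurred in 9 of 6570 ORFs (0.137%). With at most 1 letter changed it occurred in 1.9% of all ORFs and in 10 of the 22 zinc genes (45.5%), of which 4 were higher and 4 lower with the plasmid. It was found before 2 of the 42 ORFs more than 2-fold higher (4.76%), and not before YOR387C, VEL1 or ADH4. The 200-base stretches come from the RefSeq R64 sequence of S288c, not from F45, at chrVII:20622-20821 (plus strand), chrXV:34244-34443 (plus strand) and chrXIV:169515-169714 (minus strand), and capitals mark the elements with at most 1 letter changed.
ZRT1: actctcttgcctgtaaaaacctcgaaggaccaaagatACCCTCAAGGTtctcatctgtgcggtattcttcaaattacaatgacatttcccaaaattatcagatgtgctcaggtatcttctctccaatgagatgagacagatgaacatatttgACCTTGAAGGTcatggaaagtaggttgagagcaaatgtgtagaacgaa
ZPS1: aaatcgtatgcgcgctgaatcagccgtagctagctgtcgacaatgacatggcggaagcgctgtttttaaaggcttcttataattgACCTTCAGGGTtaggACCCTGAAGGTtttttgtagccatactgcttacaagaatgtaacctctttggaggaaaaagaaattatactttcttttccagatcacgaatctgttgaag
RTC4: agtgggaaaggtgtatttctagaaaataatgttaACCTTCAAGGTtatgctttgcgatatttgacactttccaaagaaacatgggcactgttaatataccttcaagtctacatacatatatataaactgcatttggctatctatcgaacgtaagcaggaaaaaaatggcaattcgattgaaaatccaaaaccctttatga
RTC4, a gene linked to telomere capping that was not on the zinc list, holds the exact element and had 38.9, 41.02, 46.4 and 47.4 CPM with the plasmid against 15.1, 16.9, 16.3 and 17.8 CPM in F45. It rose by 1.39 ± 0.08 (adjusted p = 2.31e-13). Of the 9 ORFs with the exact element, all of which were tested, 5 were higher, with a median change of 0.21. A match describes the letters only.

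Phosphate genes fell almost as a whole list. Of its 33 members 27 were lower and 2 higher with the plasmid, 9 of them more than 2-fold lower. PHO5, the secreted acid phosphatase (chrII:429548-430951, minus strand), had 164, 164, 175 and 178 CPM with the plasmid against 884, 943, 873 and 879.8 CPM in F45 and fell by 2.39 ± 0.11 on the log2 scale (adjusted p = 2.71e-16). PHM6, a phosphate-regulated gene of unknown function, fell by 2.79 (12.3 ± 2.21 CPM against 84.8 ± 6.74 CPM). Each plasmid library was below each F45 library in both genes.

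Transporters for phosphate fell with them. PHO84, the high affinity phosphate transporter (chrXIII:24037-25800, minus strand), had 1033, 947, 1044 and 1079 CPM with the plasmid against 2713, 2904, 2821 and 2889 CPM in F45, a decrease of 1.46 ± 0.14. PHO89, which takes up phosphate together with sodium, fell by 1.83 (53.4 ± 4.85 CPM against 191 ± 16.1 CPM), and GIT1, which takes up glycerophosphoinositol, fell by 1.49 (59.4 ± 15.3 CPM against 167 ± 7.59 CPM). The low affinity transporter genes differed between themselves: PHO87 had 187 ± 1.46 CPM with the plasmid and 191 ± 9.17 CPM in F45 (log2 change -0.03, adjusted p = 0.7), while PHO90 changed by -0.46 (adjusted p = 2.97e-05). SPL2, which holds back low affinity uptake when phosphate is short, had 54.8, 62.2, 72.5 and 77.3 CPM with the plasmid and 153, 158, 133 and 135 CPM in F45 and fell by 1.12.

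Storage and signalling genes of the pathway fell less far. VTC3 and VTC4, subunits of the complex that makes polyphosphate, fell by 0.82 and 0.62, and the vacuolar phosphatase PHO8 fell by 0.66. VTC1, the small subunit of the same complex, rose by 0.28 (adjusted p = 0.000691) and is thus the exception in that complex. The cyclin-dependent kinase inhibitor PHO81 fell by 0.72, with 65.7 ± 3.79 CPM with the plasmid and 108 ± 5.20 CPM in F45. PHO4, the activator, had a log2 change of -0.34 with overlapping libraries, and PHO2, its partner, rose by 0.39. KCS1, an inositol phosphate kinase of the pathway, fell by 0.45 (71.2 ± 1.86 CPM against 97.4 ± 0.494 CPM), and 4F-238, a noncoding transcript on the strand opposite KCS1 (chrIV:481963-482307, plus strand), had 1.60, 1.07, 1.60 and 1.75 CPM with the plasmid against 9.43, 11.1, 10.8 and 8.81 CPM in F45.

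Promoters of 3 phosphate genes are shown, since the Pho4 site was frequent before genes of the list. The site CACGTG lay within 500 bases of the start codon in 18 of the 33 phosphate genes (54.5%) and in 6.07% of all ORFs. Of the 18 with the site 16 were lower (median log2 change -0.58), and of the 15 without it 11 were lower (median -0.45). Capitals mark CACGTG in these 200-base stretches of RefSeq R64, at chrXIII:26069-26268, chrII:431102-431301 and chrVIII:375113-375312, all on the minus strand.
PHO84: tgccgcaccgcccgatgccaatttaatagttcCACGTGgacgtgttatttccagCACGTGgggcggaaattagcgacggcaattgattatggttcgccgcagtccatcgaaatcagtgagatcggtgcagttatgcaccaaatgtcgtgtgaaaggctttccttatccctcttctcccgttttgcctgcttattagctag
PHO5: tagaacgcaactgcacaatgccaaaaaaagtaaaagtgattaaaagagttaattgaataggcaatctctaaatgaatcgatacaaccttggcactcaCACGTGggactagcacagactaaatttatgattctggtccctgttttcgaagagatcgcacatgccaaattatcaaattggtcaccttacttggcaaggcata
SPL2: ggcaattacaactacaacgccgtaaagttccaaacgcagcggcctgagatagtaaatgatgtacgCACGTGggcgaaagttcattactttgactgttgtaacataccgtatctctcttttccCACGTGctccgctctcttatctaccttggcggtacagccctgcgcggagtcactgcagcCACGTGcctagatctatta
Over all 370 tested ORFs with the site the median change was -0.06, with 66 higher and 126 lower.

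**Figure D3:**
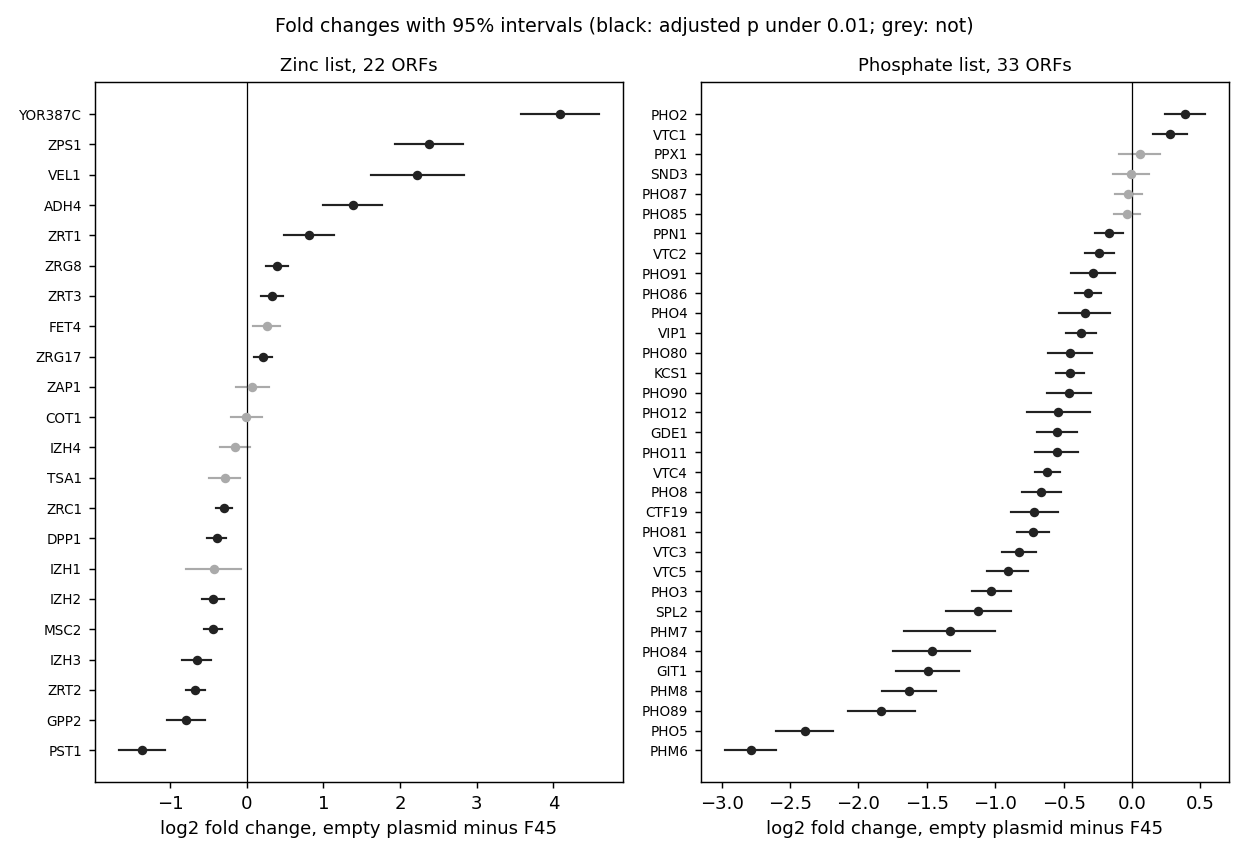
Log2 fold change of the empty plasmid strain over F45 with its 95% interval for each tested gene of the zinc list (left, 22 ORFs) and the phosphate list (right, 33 ORFs), black where the adjusted p is under 0.01 and grey elsewhere. The zinc list spans -1.37 to 4.08 on both sides of 0, and all but 3 of the phosphate genes lie below 0.

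Genes of the general stress response fell, though not those of the heat shock kind. Of 48 listed genes 30 were lower and 3 higher with the plasmid, and 13 were more than 2-fold lower. CTT1, the cytosolic catalase (chrVII:654634-656322, plus strand), had 870.0, 776, 763 and 799 CPM with the plasmid against 2658, 2884, 2474 and 2555 CPM in F45 and fell by 1.72 ± 0.13 (adjusted p = 4.21e-11). GRE1 and SIP18, hydrophilins made on drying and salt stress, fell by 3.44 and 1.71, with 424 ± 47.9 CPM against 4604 ± 624 CPM for GRE1. Plasmid and F45 libraries did not overlap in any of the 3. DDR2, a general stress gene of unknown function, had 768, 748, 878 and 891 CPM with the plasmid and 2929, 2639, 2402 and 2521 CPM in F45, and fell by 1.67. ALD3, an aldehyde dehydrogenase gene that shares 39.9% of its 51-base windows with ALD2, fell by 2.69 and ALD2 by 1.19, so reads of the pair may be divided uncertainly. The small heat shock genes HSP12 and HSP26 had 6750.3 ± 216 and 3471 ± 358 CPM with the plasmid against 7604 ± 397 and 3580.0 ± 119 CPM in F45 and did not pass the test (adjusted p = 0.0765 and 0.66), nor did the disaggregase HSP104 (log2 change 0.25, adjusted p = 0.0186). Of the activators, MSN4 fell by 0.62 (266 ± 15.8 CPM against 409 ± 26.3 CPM), while MSN2 had 88.1 ± 5.81 CPM with the plasmid and 91.96 ± 6.94 CPM in F45 (adjusted p = 0.627).

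The element AGGGG was common before these genes, and the CTT1 promoter is shown as the example. It occurred in 44 of the 48 listed genes (91.7%), in 46 of the 92 ORFs that were more than 2-fold lower (50%) and in 34.1% of all ORFs, and 23 of the 92 (25%) held it at least 2 times against 8.08% of all ORFs. Within the list 26 of the 44 genes with the element were lower (median -0.49), and 4 of the 4 without it (median -0.82). In the stretch chrVII:654195-654394 (plus strand, RefSeq R64) capitals mark AGGGG read on either strand.
CTT1: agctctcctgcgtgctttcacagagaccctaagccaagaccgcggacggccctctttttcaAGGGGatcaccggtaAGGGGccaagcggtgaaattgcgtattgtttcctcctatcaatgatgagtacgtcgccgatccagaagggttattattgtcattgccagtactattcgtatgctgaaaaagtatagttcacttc
The 42 ORFs that were more than 2-fold higher held it in 11 cases (26.2%). Over the 2052 tested ORFs with the element the median change was -0.04, with 438 higher and 588 lower.

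Chaperones moved the other way. Of 34 heat shock and chaperone genes 16 (47.1%) were higher and 6 (17.6%) lower, with a median change of 0.25. In the strain with the DIG1 plasmid the median of this list over the same F45 libraries was -0.02. BTN2, which sorts misfolded proteins, had 1889, 1898, 2158 and 1613 CPM with the plasmid and 1089, 1013, 1136 and 1060.0 CPM in F45 and rose by 0.81. HCH1, a cochaperone of Hsp90, rose by 0.66, HSP82 itself by 0.50, and the endoplasmic reticulum proteins ERO1 and KAR2 by 0.65 and 0.56. CPR1, a cyclophilin, fell by 1.01 and HSP31 by 0.97. The ribosome-bound chaperones SSB1 and SSB2 fell by 0.48 and 0.54.

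Minor isozymes stood out among the decreases beside major partners that changed less. The 9 pairs below were put together with their values known, so they describe the pattern and do not test it. PDC6, the minor pyruvate decarboxylase, had 19.04, 17.6, 15.6 and 16.7 CPM with the plasmid against 303, 328, 237 and 235 CPM in F45. PDC1, the major form, had 4478 ± 201 CPM with the plasmid and 4499 ± 153 CPM in F45, so PDC6 fell by 3.99 while PDC1 changed by -0.01 (adjusted p = 0.959). TKL2 and GND2, minor enzymes of the pentose phosphate pathway, fell by 2.92 and 2.83, beside changes of -0.05 in TKL1 and 0.03 in GND1 that did not pass the test (adjusted p = 0.476 and 0.773). NQM1 and SOL4, of the same pathway, fell by 1.60 and 1.26, with -0.17 and -0.14 for their partners TAL1 and SOL3 (adjusted p = 0.0153 and 0.0363).

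The same held for succinate dehydrogenase and the plasma membrane proton pump. SDH9, a homolog of the flavoprotein subunit, had 18.1, 16.2, 18.2 and 18.6 CPM with the plasmid against 109, 120.3, 103 and 115 CPM in F45, and SDH1 had 2688, 2456, 2468 and 2443 CPM with the plasmid against 2335, 2326, 2271 and 2181 CPM in F45. SDH9 thus fell by 2.65, and SDH1 had a log2 change of 0.14 (adjusted p = 0.318). SHH3 and SHH4, homologs of the membrane anchors, fell by 5.96 and 1.73, where the anchors SDH3 and SDH4 fell by 0.47 and 0.27. PMA2, the minor proton pump, fell by 1.89 (137 ± 5.33 CPM against 505 ± 30.7 CPM), and PMA1 had a log2 change of -0.23 (adjusted p = 0.0197). Per kilobase the major genes dominated in both strains: PMA1 had 699 CPM per kb with the plasmid and 820.5 in F45, and PMA2 48.03 with the plasmid and 178 in F45. No 51-base window was shared within 8 of the pairs, and PMA2 shared 1.29% of its windows with PMA1, so reads of one gene could seldom be counted for the other.

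**Figure D4:**
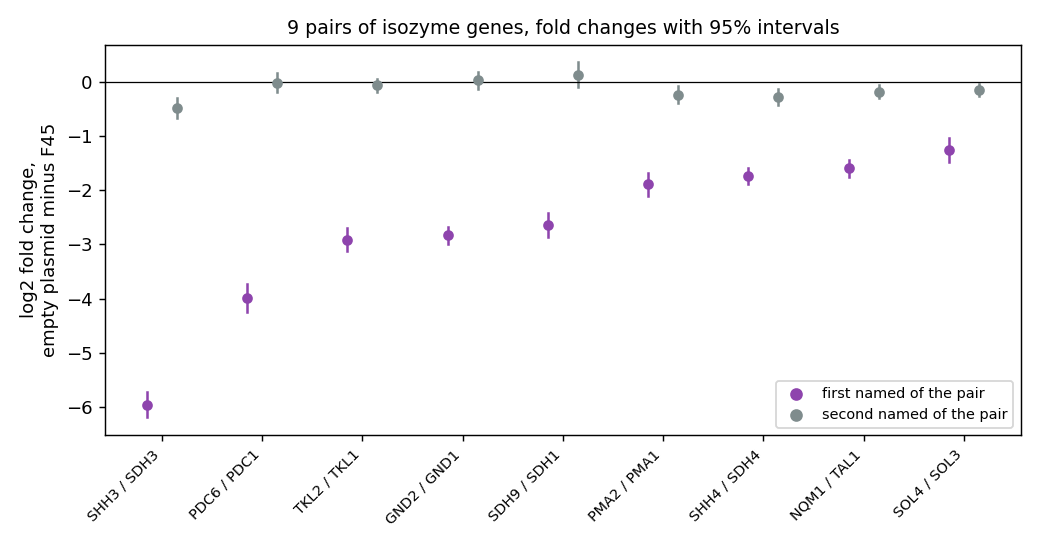
Log2 fold change of the empty plasmid strain over F45 with its 95% interval for 9 pairs of isozyme genes, the minor or homologous form in purple and the major form in grey. The purple points run from -5.96 to -1.26 and the grey points lie between -0.47 and 0.14.

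Hexose transport and glycolysis were lower. Of 29 hexose transport genes 15 were lower and 0 higher in edgeR, with a median of -0.40 (17 and 1 at an unadjusted p under 0.05, and 15 and 0 in DESeq2). HXT5, a transporter made in slow growing cells, had 505, 475, 485 and 469 CPM with the plasmid against 2099, 2036, 1777 and 1885 CPM in F45 and fell by 2.01 ± 0.16. The high affinity transporters HXT4, HXT6 and HXT7 fell by 0.62, 0.60 and 0.61. HXT6 and HXT7 share 95.1% of their 51-base windows and cannot be read apart, and HXT3, the low affinity transporter, fell by 0.49. Of 37 genes of glycolysis and fermentation 21 were lower and 3 higher (median -0.36). PGI1, phosphoglucose isomerase, had 837 ± 35.7 CPM with the plasmid and 1692 ± 8.08 CPM in F45 and fell by 1.01, and ENO1, an enolase, fell by 1.00 (5486 ± 242 CPM against 10992 ± 818 CPM). The 3 that rose were alcohol dehydrogenases: ADH4, ADH3 and ADH2, the last, which oxidizes ethanol, by 0.60. ADH5, of the same family, fell by 1.01 (138 ± 32.03 CPM against 279 ± 23.7 CPM) and lay below all 20 other libraries of the batch. Trehalose and glycogen genes were mixed, with 5 higher and 8 lower of 21. The TCA and glyoxylate cycle had 2 higher and 11 lower (25%) of 44, where 23.5% of all ORFs were lower. In the fit of only the 8 libraries it had 3 higher and 22 lower.

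Many genes for the synthesis of amino acids were lower. The lists for arginine and lysine (12 of 21 lower), branched chain (9 of 14) and aromatic amino acids with histidine (16 of 23) had 0 higher members in edgeR and in DESeq2, with medians of -0.37, -0.46 and -0.42. At an unadjusted p under 0.05 the numbers higher were 0, 0 and 1. HIS4, which acts in histidine synthesis (chrIII:65934-68333, minus strand), had 308, 306, 183 and 180.3 CPM with the plasmid against 530.0, 621, 519 and 549.7 CPM in F45 and fell by 1.18 ± 0.13. The plasmid libraries themselves fell into a higher and a lower pair, all below F45. CPA1, of arginine synthesis, fell by 0.90 (904 ± 168 CPM against 1691 ± 153 CPM), and BAT1, a branched chain aminotransferase, by 0.74. GCN4, the activator of these pathways, which is controlled chiefly in translation, fell by 0.30 (1489.6 ± 56.9 CPM against 1839.7 ± 131 CPM).

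The site TGACTCA was frequent before these genes, and the HIS4 promoter is given as an example. It lay within 500 bases of the start codon in 13 of 21 arginine and lysine genes, 8 of 14 branched chain genes, 8 of 23 aromatic and histidine genes and 4.17% of all ORFs. Of 248 tested ORFs with the site 40 were higher and 103 lower, with a median of -0.17, and without it 1398 of 5675 were higher and 1290 lower, with a median of 0.02. Capitals mark TGACTCA on either strand in chrIII:68430-68629 (minus strand, RefSeq R64).
HIS4: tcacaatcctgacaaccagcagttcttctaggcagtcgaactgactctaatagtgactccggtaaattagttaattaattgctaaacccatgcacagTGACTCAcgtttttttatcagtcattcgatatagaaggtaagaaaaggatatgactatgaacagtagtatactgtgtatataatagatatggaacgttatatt

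Both strains need serine from the medium, and the serine genes fell too. SER3, the first enzyme of serine synthesis, had 648, 618, 428 and 452 CPM with the plasmid against 1179, 1304, 1153 and 1264 CPM in F45 and fell by 1.19 ± 0.12. Its isozyme SER33 fell by 0.84 and SER1, the second step, by 0.62, while SER2, the last step, had 43.1 ± 4.26 CPM with the plasmid and 48.2 ± 6.37 CPM in F45 (adjusted p = 0.284). SRG1, a noncoding transcript that runs over the SER3 promoter on the same strand and is known to repress it, fell by 0.33. The transcripts overlap in the annotation, so reads that fall in both were not counted for either. SHM2, a serine hydroxymethyltransferase, fell by 0.95 (799 ± 112 CPM against 1547 ± 130.4 CPM). Of the 24 genes of serine, glycine and one-carbon metabolism 17 were lower and 1, THR1 of threonine synthesis, was higher (0.69).

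Other biosynthetic and uptake lists followed at a lower level. Purine and pyrimidine synthesis had 20 of 31 genes lower and 2 higher, sulfate assimilation and methionine 17 of 34 lower and 4 higher, and amino acid permeases 11 of 24 lower and 1 higher. TAT2, the tryptophan permease, fell by 1.10 and lay below all 20 other libraries of the batch, with 93.8–109 CPM with the plasmid against 158–319 CPM in the others. Among thiamine genes 11 of 25 were lower and 2 higher, led by THI4, which makes the thiazole of thiamine, at 8.23, 7.60, 6.26 and 6.31 CPM with the plasmid against 31.3, 30.2, 23.9 and 25.5 CPM in F45 (log2 change -1.95). SNZ1 and SNO1, of vitamin B6 synthesis, fell by 1.27 and 1.42. The DIG1 plasmid strain, which also carries a kanMX plasmid and was compared with the same F45 libraries, had medians over F45 of 0.25, 0.07, 0.10 and 0.15 in the arginine and lysine, branched chain, aromatic and serine lists.

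Ribosome genes rose, above all those of the mitochondrial ribosome. Of its 69 genes 52 were higher and 0 lower in edgeR, with a median of 0.36 (58 and 1 at an unadjusted p under 0.05, and 52 and 1 in DESeq2). MRP20, a large subunit protein (chrIV:1277646-1278437, plus strand), had 111, 115, 119 and 111 CPM with the plasmid against 50.9, 50.5, 53.3 and 52.2 CPM in F45 and rose by 1.14 ± 0.06 (adjusted p = 6.27e-15). MRPL11 rose by 1.02 (115 ± 7.99 CPM against 56.2 ± 4.39 CPM), and MRP2 by 0.78. Of 137 cytosolic ribosomal protein genes 58 were higher and 3 lower, with a median of 0.21. RPL37A had 409, 418, 388 and 405 CPM with the plasmid against 149, 167, 210.0 and 172 CPM in F45 and rose by 1.21, and RPL43A rose by 1.01. Ribosome assembly genes were mixed, with 31 higher and 17 lower of 91.

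Short ORFs as a class were higher with the plasmid, and ribosomal genes are short. Among the shortest of 3 equal classes, ORFs up to 864 bases, 657 of 1977 were higher and 278 lower (median 0.12), and among the longest 319 of 1974 were higher and 599 lower (median -0.06). Over 5923 ORFs, which share libraries and are not replicates, Spearman's rho between change and length was -0.21. With the trend over length removed, an alternative added after seeing the data, the mitochondrial ribosome had 50 genes higher and 2 lower with a median of 0.27, and the cytosolic ribosome 46 higher and 4 lower with a median of 0.16. What gives the trend over length was not tested.

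Of 46 genes of the respiratory chain and ATP synthase 18 (39.1%) were higher and 6 (13%) lower, against 24.3% and 23.5% of all ORFs. Their median length was 439.5 bases, against 1182 for all tested ORFs. With the trend over length removed 13 were higher and 7 lower, with a median of 0.03. CYC1, cytochrome c, rose by 0.88 to 1274 ± 61.5 CPM with the plasmid, against 691 ± 51.99 CPM in F45. QCR2, of the cytochrome bc1 complex, and ATP7, of the ATP synthase, rose by 0.82 and 0.76. NDE2, an external NADH dehydrogenase, fell by 0.76, and RIP1, the Rieske protein, by 0.50.

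Of 49 kinetochore and centromere genes 20 (40.8%) were higher and 2 (4.08%) lower, against 24.3% and 23.5% of all ORFs, with a median of 0.26. In the DIG1 plasmid strain the median of this list over the same F45 libraries was 0.09. DAD2 and HSK3, subunits of the complex that couples kinetochores to microtubules, rose by 0.68 and 0.56. IPL1, the Aurora kinase that releases wrong attachments, had 5.25, 6.53, 6.55 and 6.37 CPM with the plasmid and 3.48, 3.71, 3.81 and 4.68 CPM in F45 and rose by 0.65, and CSE4, the centromeric histone H3, rose by 0.49. The lower members were CTF19 (-0.71), which lies beside the phosphate gene VTC3 and stands on the phosphate list as well, and SKP1 (-0.31). Of 11 histone genes 7 were higher and 0 lower in both edgeR and DESeq2 (8 and 0 at an unadjusted p under 0.05), with HHF2 and HHT2 up by 0.63 and 0.58.

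Of 24 cyclin and cell cycle genes 8 (33.3%) were higher and 2 (8.33%) lower, against 24.3% and 23.5% of all ORFs. CDC20, which activates the anaphase promoting complex, had 47.4, 49.4, 49.7 and 50.6 CPM with the plasmid against 22.9, 22.96, 27.3 and 24.4 CPM in F45 and rose by 1.01. SWI5, an activator of genes of late mitosis and early G1, rose by 0.94, its target SIC1, an inhibitor of S phase, by 0.76, and the mitotic cyclin CLB1 by 0.53. CLN3, the first cyclin of G1, fell by 0.67. The libraries of the strains lay apart for CDC20 and SWI5. Genes of replication origins were close to the background, with 6 higher and 4 lower of 32.

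Of 34 iron and copper genes 9 (26.5%) were higher and 9 (26.5%) lower, close to the shares of all ORFs (24.3% and 23.5%). The mannoprotein gene FIT2, which helps bind iron siderophores at the wall (chrXV:1059531-1059992, plus strand), had 338, 305, 369 and 358 CPM with the plasmid against 119.5, 113, 119 and 115 CPM in F45 and rose by 1.56 ± 0.13 (adjusted p = 1.20e-10). FIT3 and FRE5, its neighbours on chromosome XV, rose by 1.23 and 0.94, and AFT1, the activator of the iron genes, by 0.70. The multicopper oxidase FET3 and the copper genes CTR1 and ATX1, for uptake and delivery of copper, rose by 0.62, 0.66 and 0.72. ISU1, the scaffold for iron-sulfur clusters, fell by 1.12.

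A few genes stood above or below every other library of the batch. Of the 42 ORFs more than 2-fold higher, 12 exceeded all 20 other libraries of the batch, and 6 of the 92 lower ones were below all 20, where 172 (2.9%) and 207 (3.49%) of all ORFs did so. The 20 include the F45 libraries from which these ORFs were chosen to differ. That choice itself raises their shares, so the counts describe these ORFs and test nothing. RCN1, which regulates the phosphatase calcineurin (chrXI:153816-154451, minus strand), had 26.98, 30.3, 29.7 and 28.5 CPM with the plasmid against 11.2, 10.6, 10.6 and 12.5 CPM in F45, and the other 20 libraries of the batch reached at most 16.3 CPM. RCN1 rose by 1.37 ± 0.11 (adjusted p = 6.93e-11). MNC1, a small gene of unknown function, had 202, 156, 149.7 and 122 CPM with the plasmid against 90.2, 70.8, 56.8 and 52.2 CPM in F45 and rose by 1.23. ATO3, which belongs to a family of ammonium and acetate transporters, rose by 1.03 (1118 ± 129 CPM against 547 ± 56.3 CPM). YBR099C, a dubious ORF on the strand opposite MMS4, rose by 1.37, and CSS3, of unknown function, by 1.63.

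Drug efflux genes were mostly lower. Of 40 genes 22 were lower and 2 higher, with a median of -0.33. AQR1 and TPO1, which export acids and polyamines, fell by 1.03 and 0.87. PDR5, the main multidrug pump, had 492 ± 138 CPM with the plasmid and 639 ± 143 CPM in F45, which overlap (log2 change -0.38, adjusted p = 0.121), and SNQ2, a related pump, fell by 0.47. Of 33 oxidative defence genes, CTT1 included, 14 were lower and 2 higher, and DOT5, a nuclear peroxidase, rose by 1.07.

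Genes of adhesion and filamentation, which shape yeast colonies, all stayed within 2-fold of F45. FLO11, the flocculin of fluffy colonies, had 23352, 22751, 22904 and 21282 CPM with the plasmid against 16009, 15546, 16966 and 17223 CPM in F45. Its libraries did not overlap (two-sided exact permutation p = 0.0286, the smallest that 4 against 4 allows), and its log2 change of 0.46 did not pass in the fit of all 24 libraries (adjusted p = 0.0817) and passed in the fit of only the 8 libraries (adjusted p = 8.83e-06). TEC1, the partner of Ste12 in filamentation, had 83.6, 87.9, 91.3 and 92.5 CPM with the plasmid against 50.2, 55.1, 59.3 and 58.9 CPM in F45 and rose by 0.66. FLO10, another flocculin, fell by 0.56 (187 ± 11.3 CPM against 275 ± 44.8 CPM). Of 43 filamentation genes 11 (25.6%) were higher and 7 (16.3%) lower, against 24.3% and 23.5% of all ORFs. STE12 and DIG2 did not pass the test (log2 change 0.18 and 0.26). PDE2, which breaks down cyclic AMP, fell by 0.91 (237 ± 20.98 CPM against 446 ± 42.6 CPM).

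Of 38 cell wall mannoprotein genes 11 (28.9%) were higher and 9 (23.7%) lower, close to the shares of all ORFs (24.3% and 23.5%). TIR1, CWP2 and CCW12 rose by 0.97, 0.95 and 0.90, with 9068 ± 398 CPM with the plasmid and 4843 ± 86.8 CPM in F45 for CCW12. PIR3 and PST1, which are induced by wall damage, fell by 1.89 and 1.37. The mating pheromone genes MFA1 and MFA2 rose by 0.57 and 0.62, and the reporter locus gene SPS2 by 0.78 from a low level (2.32 ± 0.0828 CPM against 1.34 ± 0.0962 CPM).

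Noncoding transcripts, most of them rare, were more often called lower than higher. Of 2143 tested, 120 (5.6%) were higher and 232 (10.8%) lower with the plasmid. Several of the steepest decreases lay beside genes already described: 8F-165 (chrVIII:375188-375495, plus strand), 87 bases from SPL2, had 0.377, 0.44, 0.485 and 0.0513 CPM with the plasmid against 3.05, 3.22, 4.03 and 2.62 CPM in F45 and runs into the SPL2 stretch shown with the phosphate genes. MUT392.1 (chrIV:1022582-1023118, plus strand), 260 bases from PHM6, changed by -2.98. SUT1598.2, 98 bases from RME1, a repressor of meiosis that itself fell by 1.34, changed by -2.45. The largest increases were in ST7076 (2.30), in 13R-316 opposite MGL2 (2.15), in ST2511 near HXT2 (2.14) and in 12F-209 opposite NMT1 (2.04). ICR1, which is transcribed across the FLO11 promoter, had 18.2, 16.3, 17.6 and 15.9 CPM with the plasmid against 29.01, 26.9, 25.3 and 27.8 CPM in F45 and fell by 0.67.

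Of 20 tested genes that the reference strain lacks, 2 (10%) were higher and 9 (45%) lower. The gene EC1118_1O4_0023g, taken from a wine strain, had a mean of 40.3 CPM with the plasmid and 14.4 CPM in F45 (log2 change 1.47), and DUPB-C rose by 0.39. The 9 lower ones changed by between -0.92, for 59A_0023g (153 CPM with the plasmid and 289 CPM in F45), and -0.20, and included the maltose genes MAL64 (-0.51) and Mal13 (-0.47).

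The F45 libraries of the first batch held the extreme level for most of the large changes. Of the 92 lowered ORFs F45 had the highest mean of the 6 groups of the batch in 83, against 1138 of all 5923 ORFs, and of the 42 raised ORFs it had the lowest mean in 32, against 1500 of 5923. These ORFs were chosen for a large difference of F45 from the empty plasmid strain. That choice itself makes F45 an extreme group more often than among all ORFs, so the counts test nothing. SPS100 averaged 18.98 CPM with the empty plasmid, 28.5 CPM with the DIG1 plasmid and 1171 CPM in F45. PHO5 averaged 170.5 CPM with the empty plasmid, 45.7 CPM with the DIG1 plasmid and 895 CPM in F45. Both plasmid strains were thus far below F45 in these genes, and they were compared with the same F45 libraries. The disomic groups of the batch, which carry no plasmid, were far below F45 as well. SPS100 averaged 123, 11.8 and 9.71 CPM in disome XV, disome XVI and the DIG1-hemizygous disome XVI. PHO5 averaged 36.1, 72.9 and 40.9 CPM in these groups.

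F45 was also sequenced in the second batch, as 3 libraries with other read length and a normalization of their own, so levels can only be set side by side. There ZPS1 had 2713, 3200.3 and 2399.7 CPM, against 1923 CPM with the empty plasmid and 370.0 CPM in F45 of the first batch. SPS100 had 317, 599 and 783 CPM, PHO5 584, 775 and 786 CPM and CTT1 1155, 1881 and 1800.1 CPM in the second batch. These lie between the means of the 2 strains of the first batch, whereas ZPS1 lay beyond the plasmid strain. So did the means of 3 further zinc genes: ADH4 had 1187, 1777 and 1351 CPM, ZRT1 3141, 4206 and 3809 CPM and VEL1 12.3, 13.7 and 7.98 CPM in the second F45 set, against means of 896, 1378 and 10.2 CPM with the empty plasmid, while YOR387C, at 173, 164.7 and 96.6 CPM, lay between the strains. The increase of ZPS1, ADH4, ZRT1 and VEL1 was therefore seen beside F45 of the first batch and not beside its second set. FIT3, at 444, 452 and 444 CPM, was also above its mean of 394 CPM with the empty plasmid. FRE5 averaged 6.10 CPM in the second F45 set, against 4.92 CPM with the plasmid and 2.55 CPM in F45 of the first batch. FIT2 had 300–328 CPM in that set, which overlaps the 305–369 CPM of the plasmid libraries. It lay above the 113–119.5 CPM of F45 in the first batch. RTC4 and CSS3 had 30.4–42.1 and 3.63–7.79 CPM in the second F45 set. These ranges overlap those of the plasmid libraries (38.9–47.4 and 5.81–8.25 CPM) and lie above the first F45 means of 16.5 and 2.17 CPM. Of the 92 lowered ORFs the second F45 mean was between the means of the strains in 67, at or beyond that of F45 in 17 and at or beyond that of the plasmid strain in 8. Of the 42 raised ORFs the numbers were 26, 11 and 5. Smaller changes were not counted in this way. Among lowered genes named above, BAT1, SER1, HXT3 and MSN4 averaged 94.5, 196, 273 and 211 CPM in the second F45 set. These lie below their means with the plasmid, 131, 223, 462 and 266 CPM. ADH5 and AQR1, at 114 and 56.5 CPM in the second F45 set, were also below their means with the plasmid (138.2 and 138.4 CPM). CPA1 and HXT7, at 911 and 5405 CPM, were close to the plasmid strain (904 and 5341 CPM). GCN4, at 1870 CPM, lay beyond F45 of the first batch (1840 CPM). RCN1 was steady, with 10.6, 10.1 and 11.1 CPM in the second F45 set against 11.2 CPM in the first, and ANS1, at 0.46, 1.24 and 0.622 CPM, stood at the level of the plasmid strain. FLO11 and MFA1 stood there too, with means of 22003.5 and 81.4 CPM in the second F45 set against 22572 and 80.4 CPM with the plasmid. ICR1 averaged 18.9 CPM in that set, against 17.0 CPM with the plasmid and 27.3 CPM in F45 of the first batch. FLO10 averaged 350 CPM there, beyond F45 of the first batch (275 CPM).

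**Figure D5:**
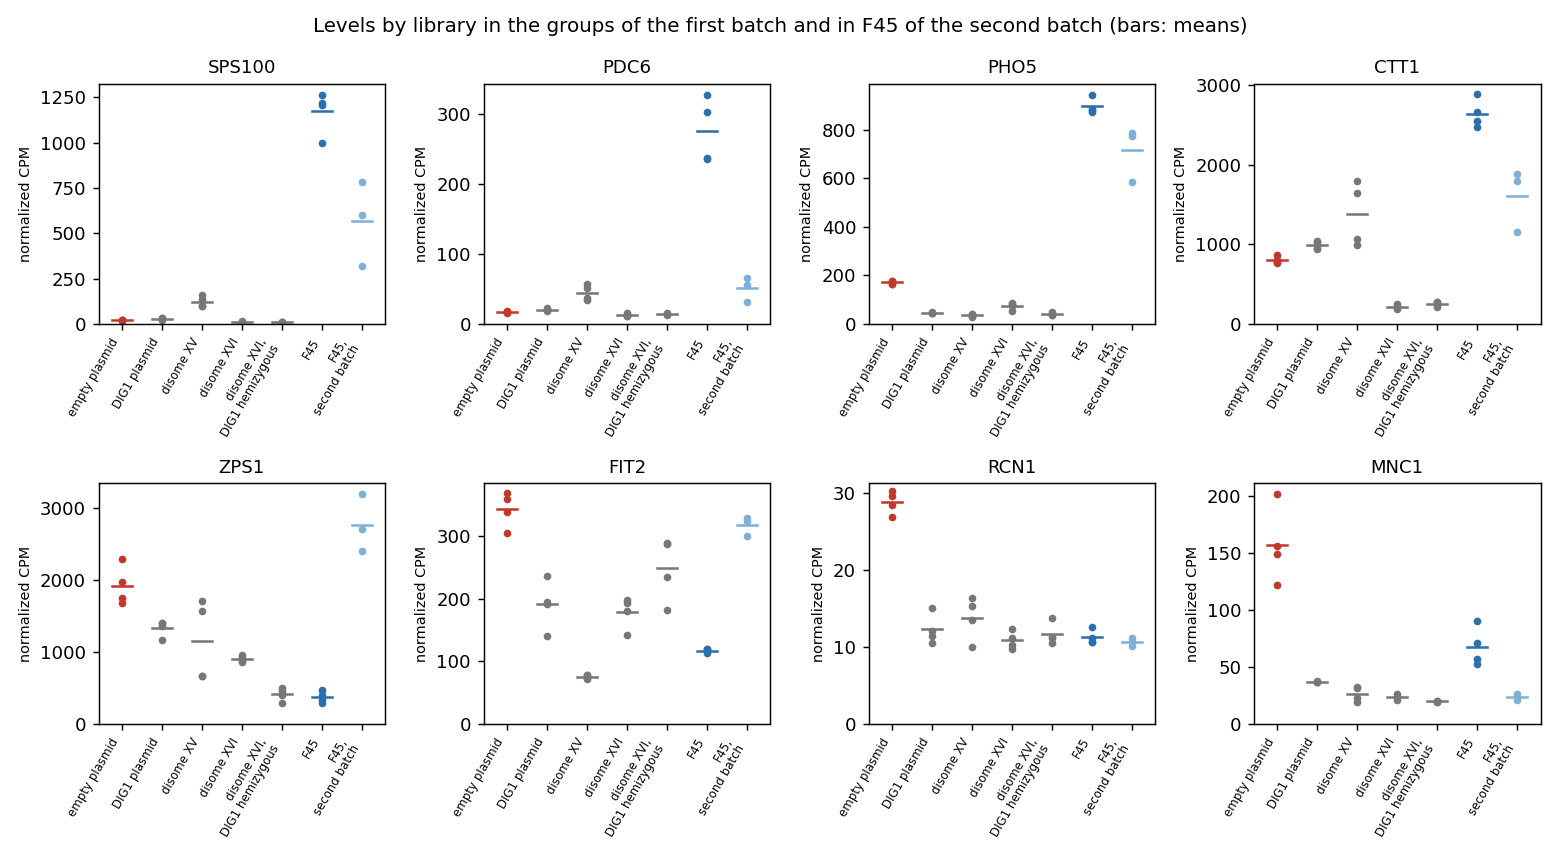
Normalized CPM of each library for 8 genes in the 6 groups of the first batch and in F45 of the second batch, which was normalized separately; points are libraries and bars are means, on linear axes from 0. F45 of the first batch (dark blue) is highest for SPS100, PDC6, PHO5 and CTT1, its second batch (light blue) lies lower, and the empty plasmid libraries (red) stand above all others of the first batch for FIT2, RCN1 and MNC1.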

How the data were processed

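Strand-specific libraries of polyadenylated RNA were sequenced in pairs of 51 bases (75 in the second batch). The authors aligned read pairs with Bowtie2 2.1.0 to the R64 genome, extended with sequences of other strains, and deposited raw counts per feature from featureCounts 1.4.0 (Subread), which leaves out reads that overlap more than 1 feature. 175 tested ORFs overlap another feature on the same strand. The depth was 8899951–37823857 counts per library.

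From the deposited counts, all 24 libraries of the first batch were fitted with edgeR 4.0.16 (limma 3.58.1, R 4.3.3) by its quasi-likelihood test, with TMM factors and library sizes set by the nuclear ORFs of all chromosomes but XV and XVI, filterByExpr, a contrast of empty plasmid over F45, Benjamini-Hochberg adjustment over 8097 tested features and a threshold of 0.01. Single genes were also compared by two-sided exact permutation tests. The fit was tested on simulated data with 200 changed genes. Second batch counts gave levels only. Each library pools colonies of 1 strain, and no source says whether libraries came from separate cultures, so p-values measure only the spread between these samples, which may be technical.

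The groups, gene lists and tests were chosen with earlier results of these data known. Genes named are the 12 largest increases and decreases whose libraries do not overlap, the largest changes of each of 47 lists and of noncoding features, and the marker genes, and 1 cell cycle gene is not reported here. Isozyme partners, regulators and further pathway members were added with their values known. DESeq2 1.42.0, a likelihood ratio test, other normalizations and filters, thinning, a replicate block, a test against 1.5-fold and leaving out each library were alternatives, and removal of the trend over length and of overlapped ORFs was added after seeing the data.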

Additional observations from a re-analysis of the deposited data

Results flagged for a closer look

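In 117 described genes and both strains, 8 of 234 groups of 4 libraries held 1 library that stood apart from the other 3 by Dixon's test at the 95% level, and chance flags about 1 group in 20. In F45, PHO5 was highest in a library with 943 CPM, where the next had 884 CPM. In the empty plasmid strain a single library was highest for ANS1 (1.18 CPM, the next 0.728 CPM), GND2 (38.1 CPM, the next 37.0 CPM), SDH1 (2688 CPM, the next 2468 CPM), HXT4 (5192 CPM, the next 4527 CPM) and ATO3 (1312 CPM, the next 1059.6 CPM). A single empty plasmid library was lowest for MRP2 (107 CPM, the next 137 CPM) and for IPL1 (5.25 CPM, the next 6.37 CPM). In each of these genes but SDH1 the change between strains passed the test, and the libraries of the strains did not overlap.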

How the results depend on the processing

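The counts of changed ORFs stayed within 1.5 times the reported ones (1438 higher, 1393 lower, 42 and 92 more than 2-fold) under every alternative but the test against 1.5-fold, which by its construction left 70 higher, 109 lower and 61 of 363 noncoding and nonreference features. Leaving out each library in turn gave 1193–1421 higher, 1231–1362 lower, 39–51 and 83–111 more than 2-fold, and 283–345 noncoding and nonreference features. DESeq2 gave 1422 higher and 1444 lower, TMM over all features 1569 and 1273, and thinning to equal depth 1369 and 1404, with 247 noncoding and nonreference features, against 1504, 1495 and 366 for the same 8 libraries at full depth, so depth limits the calls of rare transcripts most. The numbers shared by column headings were not used to pair the libraries in the main fit, as what they stand for is not given. Of 4 correlations of same-numbered deviations 1 was -0.03 and the others were 0.14–0.20, and 2 of 4 libraries were closest to their own number. These values do not settle whether the libraries are paired. The replicate block gave 1599 higher and 1553 lower, against 1504 and 1495 for the same 8 libraries without it. With the trend over length removed 1466 were higher and 1367 lower. Of 252 named changes 0 turned round, 3 were lost with DESeq2 and 178 in the test against 1.5-fold, and 8–13 when 1 library was left out. Of 810 list medians 753 stayed within 1 SD, and 12 changed sign, in lists with medians of at most 0.05 in size.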

Other observations

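Some genes outside the account above moved as well. Of 45 genes of ergosterol and lipid synthesis 17 were lower and 6 higher with the empty plasmid, with OLE1, the fatty acid desaturase, at 3263 ± 588 CPM against 6090.4 ± 539 CPM in F45 (log2 change -0.90) and INO1, which makes inositol, at 1158 ± 57.3 CPM against 599 ± 122 CPM (log2 change 0.95). The ribonucleotide reductase genes RNR1, RNR2, RNR3 and RNR4 were all lower, by between -0.66 and -0.40 on the log2 scale. In their list of 24 DNA damage genes 5 (20.8%) were lower and 3 (12.5%) higher. Both shares are below those of all ORFs (23.5% and 24.3%). Of 33 vacuolar and autophagy genes 12 were lower and 5 higher, among them the protease genes PRC1 (-0.80) and PEP4 (-0.57).

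Meiotic genes moved apart from each other. Of 31 tested 9 (29%) were higher and 4 (12.9%) lower, against 24.3% and 23.5% of all ORFs. SPS100 and IME1, the inducer of meiosis, were lower (-5.94 and -0.85), while SPS4, SPS22 and ZIP1 were higher (0.95, 0.94 and 0.59), and the sum of 11 meiotic marker genes was 128–143 CPM with the plasmid and 139–173 CPM in F45. Of 12 tested seripauperin genes 0 passed in either direction in edgeR or DESeq2, with 2 higher and 1 lower at an unadjusted p under 0.05.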
